A study of Mus musculus with 4 samples.

Results

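Epicardial cells of the embryonic mouse heart ventricle were chosen by measured values, the UMI counts of marker genes in single-cell RNA data. A barcode was kept when it held at least 1000 genes, under 10% mitochondrial UMIs (unique molecular identifiers, which count captured transcripts) and under 1% of UMIs from 8 cardiomyocyte genes, together with at least 4 UMIs from Upk3b, Upk1b, Msln, Lrrn4 and Krt7, at least 2 of these 5 genes detected, and at most 1 UMI from the endothelial genes Cdh5, Pecam1 and Emcn. That rule found 990 cells, out of 15568 barcodes that were low in cardiomyocyte transcripts, 42246 that passed the gene and mitochondrial limits, and 61172 deposited. Of them, 325 and 147 came from the KO libraries (KO 1 and KO 2), and 324 and 194 from the het libraries (het 1 and het 2).

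The KO embryos carried 2 floxed Gata4 alleles (Gata4fl/fl), and the het embryos carried 1 floxed and 1 normal allele (Gata4fl/+). All embryos carried Cdh5(Pac)-CreER, a tamoxifen-dependent Cre driven by the promoter of the endothelial cadherin gene, and Rosa26mTmG/+, a reporter that turns from a red to a green membrane protein where Cre has acted. Tamoxifen was given at E9.5 (embryonic day) and ventricles were collected at E12.5. Each group had 2 libraries, and no label gives the number of embryos behind a library, so p-values measure the spread between these libraries, which may be technical.

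The epicardium is the mesothelial sheet that covers the heart. Its cells come from the proepicardium, make retinoic acid through Aldh1a2, and release growth factors that act on the myocardium below. Some of them undergo an epithelial-to-mesenchymal transition and supply cardiac fibroblasts and mural cells. The Cre used here is aimed at the endothelium, so in the epicardium the comparison of KO with het asks about cells next to those in which Gata4 was to be removed.

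The gated cells carried genes of a mesothelial sheet. The values below are levels in CPM, the UMIs of a gene per 1e6 UMIs of the class in that library, scaled by TMM (trimmed mean of M-values), and averaged over the 4 libraries. They are a description, since the gate selected these cells, and cells gated as mesenchymal (4707), endothelial (3600) and cardiomyocyte (7795) serve only to show the contrast. Mesenchymal and endothelial cells were limited to at most 1 UMI of the gate genes, so for those genes the contrast is set on both sides. Among the gate genes, Upk3b, a uroplakin of the mesothelial surface, averaged 1486 CPM in epicardial cells, and 1.61, 1.87 and 2.93 CPM in mesenchymal, endothelial and cardiomyocyte cells. Aldh1a2, the retinaldehyde dehydrogenase that makes retinoic acid and a marker the gate did not use, averaged 481 CPM in epicardial cells, against 13.4 CPM in mesenchymal, 0.883 CPM in endothelial and 0.942 CPM in cardiomyocyte cells. Rspo1, a secreted enhancer of Wnt signalling, averaged 296 CPM in epicardial cells and 1.52 CPM in mesenchymal cells. The mesothelial mucin Muc16, the source of the CA125 antigen, averaged 239 CPM in epicardial cells and 0.319 CPM in mesenchymal cells. The transcription factor gene Bnc1 averaged 196 CPM in epicardial cells and 1.35 CPM in mesenchymal cells. Each of the 4 genes that the gate did not use stood more than 10 times as high in epicardial cells as in any of the other 3 classes.

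Among the other genes with the highest epicardial-to-other ratio were Fras1 and Npnt, which encode extracellular proteins of epithelial basement membranes, the keratin gene Krt18, Tm4sf5, Ildr2, Gpm6a, Lrp2, Smim1, Stk26 and Apela. Apela, which encodes a ligand of the apelin receptor, averaged 366 CPM in epicardial cells, 7.03 CPM in mesenchymal and 0.557 CPM in endothelial cells. The atrial light chain gene Myl7 was an exception to the low cardiomyocyte content of the gate, at 1907 CPM in epicardial cells and 1848 CPM in cardiomyocytes, against 40.2 CPM in mesenchymal and 29.7 CPM in endothelial cells. It lay in a narrow range over libraries, with 1750 and 1974 CPM in KO and 1579 and 2324 CPM in het. Myl7 is 1 of the 8 genes of the cardiomyocyte limit, so the gate works against it. Upk2, another uroplakin, had no UMI in any library, and E-cadherin (Cdh1) reached at most 0.104 CPM. Wt1 and Tbx18, the transcription factors by which epicardium is usually traced, were highest in epicardial cells, and Tcf21, a factor of epicardium and fibroblast precursors, was lower in them than in mesenchymal cells, which averaged 140.1 CPM.

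**Figure D1:**
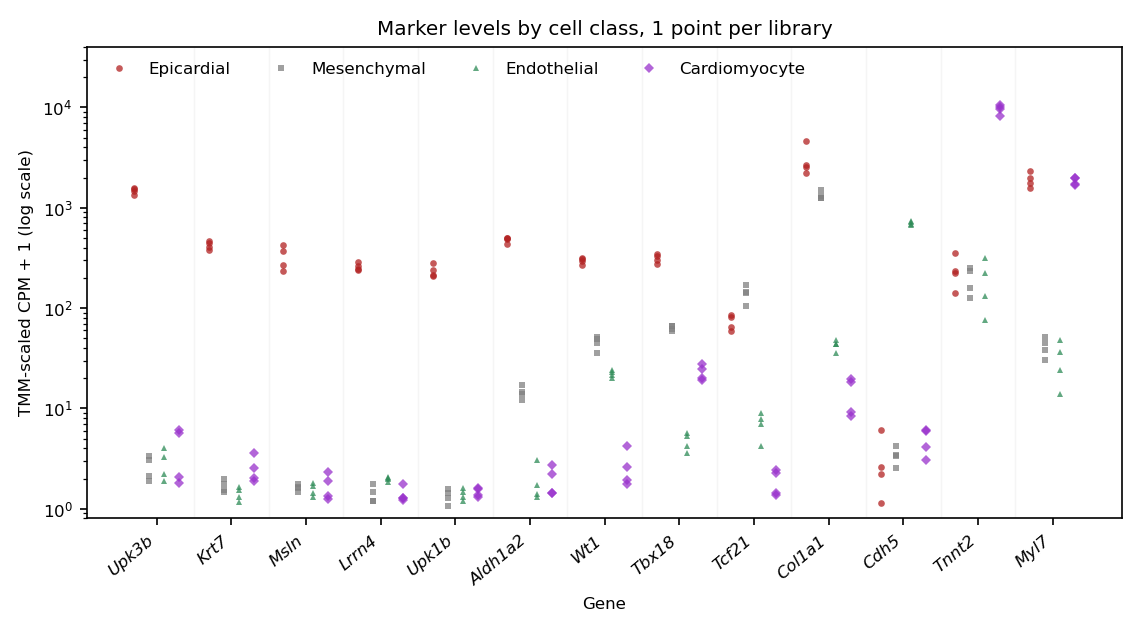
Levels of 13 marker genes (CPM + 1, log axis) in cells gated as epicardial, mesenchymal, endothelial and cardiomyocyte, with 1 point per library. The 5 gate genes and Aldh1a2 stand far above the other 3 classes in every library, Tcf21 and Col1a1 are shared with mesenchymal cells, and Myl7 is shared with cardiomyocytes.

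Library het 1 stood apart in depth and in cardiomyocyte transcripts. Its epicardial cells held a median of 5069.5 UMIs, against 19599.5 in het 2, and 19695 and 32762 in KO 1 and KO 2. Cardiomyocyte genes made up a median of 0.293% and 0.251% of their UMIs in KO, and 0.510% and 0.297% in het. Myl7 is among these genes, at 1750 and 1974 CPM in KO and 1579 and 2324 CPM in het. This percent, and a limit set on it, is therefore not a measure of purity alone. In het 1, 14199 of 20048 passing barcodes held 1 to 5% cardiomyocyte UMIs, against 2378 and 985 barcodes in KO and 1321 in het 2, and 597 barcodes of het 1 met the other conditions of the gate but were refused for cardiomyocyte transcripts, against 23 and 3 in KO and 11 in het 2. Just inside the gate, with 4 or 5 UMIs of the 5 genes, lay 3 and 1 cells in KO, and 42 and 7 in het. Their Wt1 stood at 215 and 416 CPM in KO, and 178 and 88.3 CPM in het. Barcodes just outside, with 2 or 3 UMIs, had Wt1 at 45.9 and 131 CPM in KO and 79.5 and 53.1 CPM in het. The summed epicardial UMIs were 9322048 and 7002548 in KO, and 3256354 and 7153283 in het. No epicardial barcode was shared between libraries. The Y-linked Ddx3y stood at 33.1 CPM in KO 1, 47.9 in het 1 and 53.1 in het 2, and had no UMI in KO 2, where 3 UMIs would be 0.428 CPM. Xist, the RNA that coats the inactive X chromosome, had levels of 494 and 617 CPM in KO and 333 and 219 CPM in het.

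No difference in Gata4, the floxed gene, was detected between the groups in epicardial cells. It stood at 99.9 and 86.8 CPM in KO epicardial cells, against 106 and 83.0 CPM in het. The groups overlapped, and the log2 difference, KO minus het, was -0.01 with an SE of 0.17 (adjusted p = 0.999 by edgeR's quasi-likelihood test). In endothelial cells, where Cre is driven, Gata4 stood at 194 and 179 CPM in KO and 139.9 and 124.8 CPM in het. The counts come from poly-A primed fragments and no label says which exons are flanked by the loxP sites, so these levels check nothing about the deletion. An added sequence named FloxGata4 had no UMI in any library, and one named FloxGata4_ctrl reached 2.28 and 1.02 CPM in KO and 3.03 and 0.866 CPM in het. No label says what these sequences hold.

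Reporter transcripts of recombined cells were found in part of the epicardial cells, in a share that depends on depth. After each cell was thinned at random to 3000 UMIs, 29.1% and 17.7% of epicardial cells in KO and 34.3% and 18.0% in het held at least 1 UMI of EGFP, the green marker of cells where Cre acted. In cardiomyocytes, which the Cre is not aimed at, the share was 12.9% and 8.94% in KO and 11.6% and 13.7% in het, and in endothelial cells it was 82.3% and 82.4% in KO and 88.2% and 90.3% in het. In mesenchymal cells it was 30.8% and 16.2% in KO and 27.7% and 27.4% in het. In every library the epicardial share lay above that of cardiomyocytes and under that of endothelial cells, and it lay under the mesenchymal share in KO 1 and het 2 and above it in KO 2 and het 1. The source of the epicardial EGFP UMIs was not tested. Unthinned, 69.9 ± 4.64% of epicardial cells held an EGFP UMI in KO and 57.5 ± 10.6% in het (SD, n = 2 each). The summed EGFP level was 124 and 54.0 CPM in KO and 122 and 78.4 CPM in het. The red marker of unrecombined cells stood at 372 and 355 CPM in KO and 371 and 418 CPM in het.

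Between KO and het epicardium, histone genes stood at the head of the differences. Of 13842 genes tested, H3c3, which encodes a replication-dependent histone H3, was the only gene that passed the adjusted threshold of 0.05 (0.00722% of genes tested). H3c3 stood at 112.6 and 110.5 CPM in KO, and 39.1 CPM in each het library. The groups lay far apart and the libraries of a group nearly coincided. It rose by 1.51 on the log2 scale in KO (SE 0.14, adjusted p = 0.0358 by edgeR's quasi-likelihood test). Unadjusted p under 0.05 was reached by 267 genes higher in KO (1.93%) and by 228 lower in KO (1.65%), and the median log2 difference of all genes was 0.00.

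The H3c3 call ended when only cells under 0.5% cardiomyocyte UMIs were kept (log2 difference 1.42, adjusted p = 0.0695 by edgeR) and when only cells with no endothelial UMI were kept (1.76, adjusted p = 0.489 by edgeR). Leaving out a library kept its log2 difference between 1.50 and 1.52, but moved the count of genes past the threshold from 1 to 18 without het 1, 38 without het 2, 105 without KO 1 and 114 without KO 2. Each of those fits assumes that the lone library of a group varies like the pair in the other. DESeq2 called 5 genes, which were H3c3, H3c2, H1f5 and Xist higher in KO and Igf1 lower. KO 2 had no UMI of the Y-linked Ddx3y, which the other libraries carried. The libraries thus differed in sex make-up, and its part in the Xist difference was not tested.

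H3c3 lies in the large histone cluster of chromosome 13 (GRCm38 chr13:23744973-23745602, minus strand). The replication-dependent histone genes supply the core histones H2A, H2B, H3 and H4 and the linker histones H1 while DNA is copied, and most of their transcripts end in a stem-loop in place of a poly-A tail. This set was chosen after H3c3 was seen to lead, so it supports nothing of its own. Several of its genes are near-identical, and the counts of a single copy are uncertain. The set held 65 genes, 7 of them with no UMI in any library. Of the 46 that passed the count filter, 45 had a log2 difference above 0, against 50.8% of all genes tested, and their median was 0.83. In 36 of them both KO libraries lay above both het libraries, against 16.6% of all genes tested. The summed level of the 65 genes was 2289 and 2325 CPM in KO, and 1291 and 1355 CPM in het. The counts come from poly-A primed fragments, so the levels of H3c3 and of this set cover only the transcripts that such priming captured. Whether all transcripts of these genes differ alike was not tested.

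H3c2, the neighbour of H3c3 in the cluster, stood at 22.7 and 21.8 CPM in KO, against 6.97 and 7.22 CPM in het. Its log2 difference was 1.64 (SE 0.21, adjusted p = 0.182 by edgeR). The linker histone gene H1f5 stood at 259 and 329 CPM in KO, against 123 and 179 CPM in het, with a log2 difference of 0.96 (SE 0.21, adjusted p = 0.994 by edgeR). The groups of both genes lay apart, which for H1f5 was a condition of naming, although neither passed over all genes. H1f3, another linker histone gene, stood at 68.8 and 56.8 CPM in KO and 28.2 and 33.1 CPM in het. H4c8, a histone H4 gene, stood at 48.7 and 41.7 CPM in KO and 23.3 and 23.1 CPM in het. H2ac8, a histone H2A gene, stood at 289 and 330 CPM in KO and 178 and 198 CPM in het. The same side held in every class of histone. The class medians of the log2 difference over the tested genes were 0.74 for H1 (5 of 5 above 0), 0.73 for H2A (13 of 14), 0.70 for H2B (14 of 14), 0.99 for H3 (7 of 7) and 0.97 for H4 (6 of 6). The exception below 0 was H2ac11, at 3.21 and 1.60 CPM in KO and 3.33 and 2.31 CPM in het. Summed over its 12 genes, H3 stood at 240 and 203 CPM in KO and 95.7 and 88.0 CPM in het, and the 5 H1 genes at 795 and 696 CPM in KO and 408 and 430 CPM in het. Without KO 1, 42 of 48 tested histone genes remained above 0 with a median of 0.61, the lowest of the 4 fits that left out a library, and without het 1 it was 47 of 48 with a median of 0.80.

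**Figure D2:**
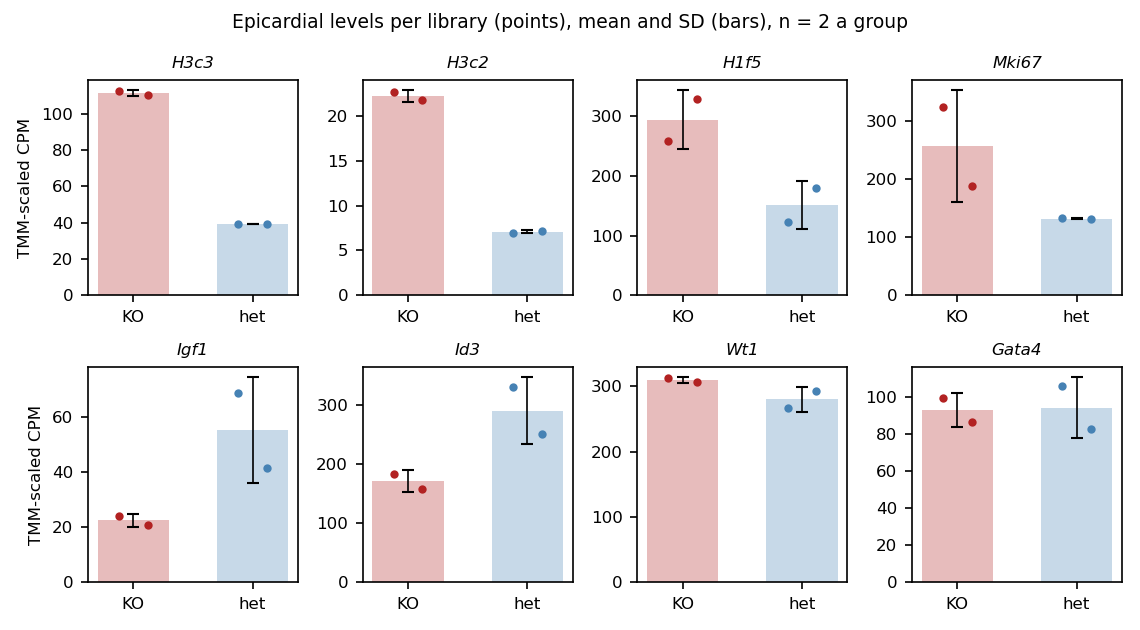
Levels (CPM) of 8 genes in epicardial cells, with 1 point per library and bars for the mean and SD of 2 libraries a group, KO left of het. H3c3 and H3c2 show the widest gap relative to the spread, Igf1 and Id3 lie lower in KO with het libraries spread apart, and Wt1 and Gata4 show near-equal means.

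Promoters are shown for H3c3, the gene past the threshold, and for H3c2 and H1f5, which did not pass by edgeR. They are shown because nearly all tested genes of this set lay on the same side of 0. Each run holds the 250 bases before the RefSeq start (GRCm38.p6), 5′ to 3′ on the gene's strand, with matches to the CCAAT box (CCAAT, or ATTGG on the other strand) and the TATA box (TATAAA, or TTTATA on the other strand) in capitals. The H3c3 promoter is at chr13:23745522-23745771 on the minus strand, that of H3c2 at chr13:23752095-23752344 on the plus strand, and that of H1f5 at chr13:21780626-21780875 on the minus strand. The H3c3 run overlaps the gene span given above, which is from GENCODE and starts further upstream than the RefSeq gene.
H3c3: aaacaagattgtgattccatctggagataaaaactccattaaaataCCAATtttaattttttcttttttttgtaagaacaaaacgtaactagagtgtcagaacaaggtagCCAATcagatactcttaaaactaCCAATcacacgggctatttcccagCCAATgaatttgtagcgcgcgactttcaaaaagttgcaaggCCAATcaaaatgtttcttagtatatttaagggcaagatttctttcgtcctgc
H3c2: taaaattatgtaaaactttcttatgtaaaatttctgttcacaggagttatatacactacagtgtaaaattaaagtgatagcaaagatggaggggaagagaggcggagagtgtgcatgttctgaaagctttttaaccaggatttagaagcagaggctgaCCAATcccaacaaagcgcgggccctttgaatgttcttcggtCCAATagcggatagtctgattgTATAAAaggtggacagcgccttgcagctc
H1f5: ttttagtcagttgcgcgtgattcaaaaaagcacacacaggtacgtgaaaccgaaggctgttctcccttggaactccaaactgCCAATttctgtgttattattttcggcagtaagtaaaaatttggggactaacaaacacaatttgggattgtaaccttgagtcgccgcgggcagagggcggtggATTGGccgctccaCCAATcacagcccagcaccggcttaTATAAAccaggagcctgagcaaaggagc
H3c3 held 5 matches to the CCAAT box and none to the TATA box. H3c2 held 2 and 1 such matches, and H1f5 held 3, of which 1 was on the other strand, and 1. The CCAAT box was found in 84.31% of the 51 promoters matched to 50 histone genes, against 33.85% of all 32851 promoters in the table, and the TATA box in 47.06% of the histone promoters, against 12.37% of all. These matches are a description of the sequence and say nothing of what binds there.

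Histone transcripts are made in S phase, so the cells were also sorted by cycle transcripts. After thinning to 3000 UMIs per cell, which left out 5 and 0 cells in KO and 73 and 5 in het, at least 10 histone UMIs were found in 16.6% (95% Wilson interval 12.9 to 21.0) and 12.9% (8.43 to 19.3) of epicardial cells in KO, and in 5.58% (3.35 to 9.14) and 6.35% (3.67 to 10.8) in het. The groups did not overlap, but 2 libraries against 2 cannot reach a p under 0.333, which is what the two-sided exact permutation test gave. At least 1 H3c3 UMI was found in 14.4% and 12.9% of cells in KO and 4.78% and 5.82% in het. Unthinned, H3c3 was found in 36.0% and 38.8% of cells in KO and 12.7% and 25.3% in het. In mesenchymal cells thinned the same way the H3c3 share was 26.2% and 25.4% in KO and 19.5% and 22.9% in het. It was 22.2% and 20.4% in KO and 16.5% and 16.7% in het in endothelial cells, and 25.0% and 33.0% in KO and 18.7% and 26.4% in het in cardiomyocytes. The groups lay apart in mesenchymal and endothelial cells too, and overlapped in cardiomyocytes.

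Shares of cycling epicardial cells gave no single order of the groups. Cells with at least 10 UMIs of 52 G2/M genes made up 34.1% and 27.2% in KO and 44.6% and 18.0% in het, which is 30.6 ± 4.84% in KO and 31.3 ± 18.8% in het (SD, n = 2 each; two-sided exact permutation p = 1). Without het 1 the difference was 12.65 percentage points, against -0.669 with it. The mean number of G2/M UMIs per thinned cell was 13.1 and 9.95 in KO and 10.98 and 8.06 in het, and the median was 6 and 5 in KO and 8 and 4 in het. At least 5 UMIs of 41 G1/S genes were found in 49.4% and 41.5% of cells in KO and 51.8% and 40.2% in het. The KO and het ranges overlapped for both sets. At least 1 Mki67 UMI was found in 29.7% and 23.1% of cells in KO and 22.7% and 11.1% in het, and unthinned in 46.8% and 42.2% in KO and 33.6% and 32.0% in het. For Mki67 both KO libraries lay above both het libraries. Split at 10 G2/M UMIs, the cells above the split had H3c3 at 240 and 269 CPM in KO and 103 and 102 CPM in het, and those below it had 16.2 and 8.81 CPM in KO and 8.31 and 9.16 CPM in het. Among cells above the split the histone sum was 4159 and 5228 CPM in KO and 2691 and 2923 CPM in het. In cells with fewer G2/M UMIs it was 913 and 455 CPM in KO and 627 and 611 CPM in het. The KO libraries thus lay above the het libraries in the cells rich in G2/M transcripts, and in the others the groups overlapped. The difference between these strata was not tested. In cells of at least 10000 UMIs, which leaves 88 of the 324 cells of het 1, H3c3 stood at 116 and 109 CPM in KO and 49.0 and 36.8 CPM in het.

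**Figure D3:**
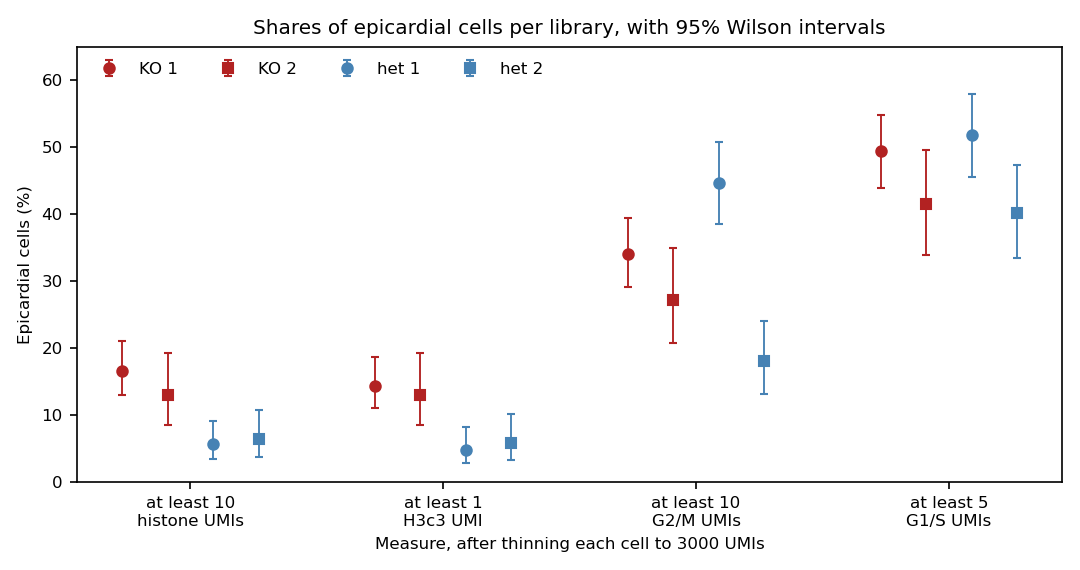
Percent of epicardial cells per library that reached each count after thinning to 3000 UMIs, with 95% Wilson intervals, KO left of het. Shares with at least 10 histone UMIs or with an H3c3 UMI lie higher in both KO libraries, and the G2/M and G1/S shares overlap.

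**Figure D4:**
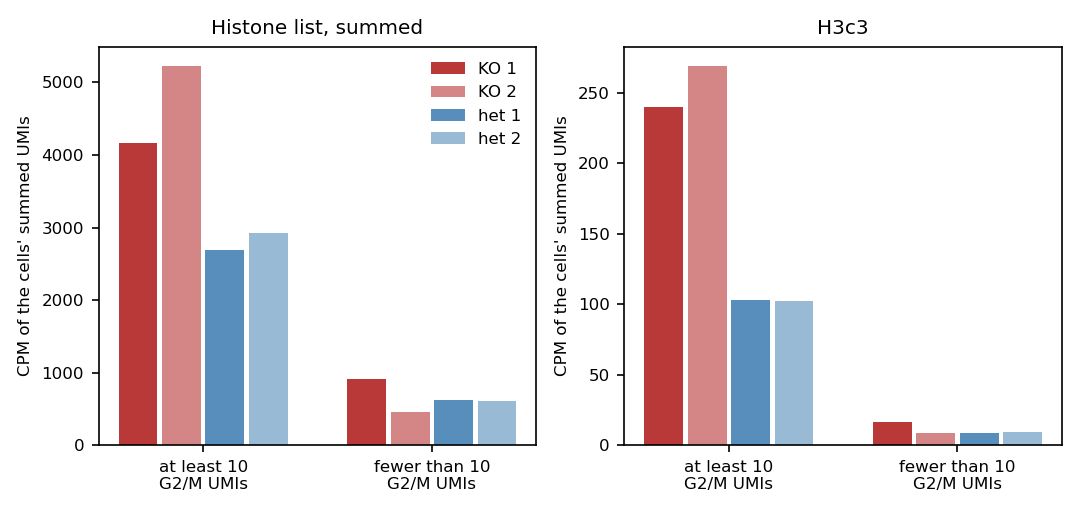
Levels (CPM of the summed UMIs) of H3c3 and of the histone sum in epicardial cells with at least 10 or with fewer than 10 G2/M UMIs, with 1 bar per library. The KO bars stand above the het bars in the cells with at least 10 G2/M UMIs (H3c3 at 240 and 269 CPM in KO, 103 and 102 CPM in het).

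Most G2/M genes had a higher level in KO, although none passed the adjusted threshold. Of 52 G2/M genes, 48 had a log2 difference above 0, against 50.8% of all genes tested, with a median of 0.31. An unadjusted p under 0.05 was reached by 13, all of them higher in KO, against 1.93% of all genes. Mki67, the Ki-67 proliferation antigen, stood at 325 and 189 CPM in KO and 133 and 131 CPM in het, with a log2 difference of 0.96 (SE 0.24, adjusted p = 0.994 by edgeR). Top2a, the topoisomerase of replicating cells, stood at 291 and 191 CPM in KO and 157 and 153 CPM in het. Knl1, a kinetochore scaffold, stood at 57.3 and 43.8 CPM in KO and 27.0 and 30.3 CPM in het. KO 1 was the higher library for all 3 genes, and without it 36 of 52 G2/M genes were above 0 with a median of 0.08. Of 41 G1/S genes, 27 were above 0, against 50.8% of all genes tested, with a median of 0.10. Without het 2 it was 20 of 41 with a median of 0.00, and without het 1 it was 34 of 41 with a median of 0.21. An unadjusted p under 0.05 was reached by 5, all higher in KO, against 1.93% of all genes, namely Blm, Rad51ap1, Ccne2, Atad2 and Clspn. Blm, a helicase that guards replication forks, stood at 24.1 and 16.6 CPM in KO and 11.8 and 10.8 CPM in het.

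Other genes named by lowest p, where groups apart were a condition of naming, did not pass over all genes. Ptprz1, a receptor phosphatase, stood at 64.3 and 66.9 CPM in KO and 33.3 and 42.4 CPM in het. Fads6, a fatty acid desaturase family member, stood at 65.6 and 73.5 CPM in KO and 39.4 and 39.0 CPM in het, and Sema3e, a secreted semaphorin, at 63.5 and 51.0 CPM in KO and 35.1 and 36.4 CPM in het. H3c6, a histone H3 gene, stood at 45.8 and 31.1 CPM in KO and 21.8 and 19.6 CPM in het. The adjusted p was 0.694 for Fads6 and 0.994 for the others by edgeR, with log2 differences of 0.68 to 0.91.

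On the other side, Igf1 had the lowest p. Igf1, which encodes insulin-like growth factor 1, stood at 24.2 and 20.9 CPM in KO and 68.8 and 41.6 CPM in het, a log2 difference of -1.26 (SE 0.24, adjusted p = 0.729 by edgeR). DESeq2 gave an adjusted p of 0.0239 for it. Without het 1, the higher of the het libraries, the log2 difference was -0.88. In cells of at least 10000 UMIs Igf1 stood at 24.8 and 19.9 CPM in KO and 73.4 and 36.1 CPM in het. Mesenchymal cells carried far more, at 216 and 214 CPM in KO and 235 and 312 CPM in het. Id3, a target of BMP signalling that blocks basic helix-loop-helix factors, stood at 184 and 159 CPM in KO and 330 and 251 CPM in het (log2 difference -0.76, SE 0.18, adjusted p = 0.994 by edgeR). The KO libraries lay below both het libraries for both genes, which was a condition of naming them here. Of all genes tested, 15.5% did so.

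Further genes of low p below het were the tubulin gene Tuba1a, at 114 and 121 CPM in KO and 204 and 183 CPM in het, and Ccnd1, the G1 cyclin D1, at 18.9 and 23.5 CPM in KO and 50.9 and 31.5 CPM in het. Sfrp2, a secreted Wnt antagonist, stood at 48.5 and 33.8 CPM in KO and 101 and 60.8 CPM in het. Fbln1, a fibulin of the matrix, stood at 51.8 and 58.9 CPM in KO and 79.1 and 83.1 CPM in het. Crip2, Gamt, Ypel3 and Msrb1 had log2 differences between -0.59 and -0.61. None of these genes passed over all genes tested, with an adjusted p of 0.994 by edgeR for each.

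No difference was detected in the genes that mark the epicardium. None of the 29 tested identity genes reached an unadjusted p under 0.05, 20 lay above 0, and the median was 0.10. In 8 of them both KO libraries lay above both het libraries, against 16.6% of all genes tested. In 5 they lay below, against 15.5%. Wt1 stood at 312 and 307 CPM in KO, against 267 and 293 CPM in het (log2 difference 0.14, SE 0.15). Tbx18 stood at 328 and 275 CPM in KO, against 348 and 303 CPM in het (-0.11, SE 0.17). Tcf21 stood at 85.3 and 58.7 CPM in KO, against 81.2 and 63.8 CPM in het (0.00, SE 0.21). For Tbx18 and Tcf21 the groups overlapped, and for Wt1 the gap was smaller than the distance between the het libraries. The 5 gate genes are not independent of the selection and are not read as a result. Of 27 tested transcription factor genes, 6 lay above 0 with a median of -0.05 (-0.19 without KO 1 and -0.18 without het 2). Gata5, the related GATA factor, was the only one of them with an unadjusted p under 0.05, at 12.7 and 13.4 CPM in KO and 21.5 and 16.9 CPM in het (log2 difference -0.54, SE 0.21). Gata6, the third cardiac GATA factor, stood at 294 and 339 CPM in KO and 310 and 348 CPM in het, where the groups overlapped.

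Single cells were mixed for these factors at the depth of 3000 UMIs. Wt1 was found in 59.7% and 59.2% of epicardial cells in KO and 52.2% and 48.1% in het, and Tbx18 in 56.3% and 60.5% in KO and 51.4% and 55.0% in het. For Wt1 and Tbx18 both KO libraries lay above both het libraries. Aldh1a2 lay the other way, at 66.9% and 65.3% in KO and 69.7% and 74.6% in het. The two-sided exact permutation p was 0.333 for each, the lowest it can be. In endothelial cells, Wt1 was found in 5.77% and 6.56% in KO and 5.04% and 4.09% in het, and Tbx18 in at most 1.13% of cells of a library. In cardiomyocytes Wt1 was found in at most 0.708% and Tbx18 in at most 7.03% of cells of a library, and in mesenchymal cells in at most 10.9% and 15.1%. The epicardial shares of both factors lay above those of the other 3 classes in every library. Median depths before thinning ran from 9593 to 28121 UMIs in endothelial cells and from 6564 to 10161.5 UMIs in cardiomyocytes. Wt1 and Tbx18 were found together in 32.8% and 37.4% of cells in KO and 26.7% and 29.6% in het. Tcf21 was found in 22.8% and 11.6% of epicardial cells in KO and 22.3% and 12.2% in het, against at most 2.39% of endothelial and 0.658% of cardiomyocyte cells, and in 30.9% and 27.6% of mesenchymal cells in KO and 27.4% and 20.2% in het. It was seen in 22.0% and 8.05% of Wt1-positive cells in KO and 21.4% and 7.69% in het, and in 24.0% and 16.7% of Wt1-negative cells in KO and 23.3% and 16.3% in het. Tcf21 was thus found in a smaller share of Wt1-positive cells in all 4 libraries. A cell thinned to 3000 UMIs misses many transcripts, so a negative cell is not one without expression.

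The ratio of variance to mean of the UMIs ranks genes by how much they vary from cell to cell. The highest ratios among 5781 ranked genes, judged by the lowest rank over the 4 libraries, belonged to Malat1, Col1a1, Igfbp5, Hist1h2ap, Fos, Col1a2, Cdkn1c, Tmsb4x, Col3a1, Top2a, S100a6, Meg3, Jun, Hmgb2 and Sparc. Malat1, a long nuclear RNA, had ratios of 15.2 and 21.5 in KO and 37.1 and 11.6 in het. Col1a1 had ratios of 7.39 and 8.28 in KO and 7.22 and 4.35 in het, and its level was 2228 and 4670 CPM in KO and 2681 and 2538 CPM in het. Fos and Jun are early response genes. Of 18 heat shock and early response genes, 7 lay above 0 with a median of -0.08 (0.06 without KO 2), and none reached an unadjusted p under 0.05.

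Genes of retinoic acid handling gave no common direction. Of 15 tested, 6 lay above 0 with a median of -0.04 (0.05 without het 2). Aldh1a2 stood at 431 and 492 CPM in KO and 500 CPM in each het library (log2 difference -0.12). Rdh10, which makes the retinaldehyde that Aldh1a2 uses, stood at 54.8 and 58.1 CPM in KO and 39.4 and 44.9 CPM in het (0.41, unadjusted p = 0.0222 by edgeR). Crabp1, a carrier of retinoic acid, was near the floor of detection, at 0.414 and 1.02 CPM in KO and 3.03 and 3.75 CPM in het. Rxrg, a retinoid receptor gene, was also low, at 1.97 and 4.07 CPM in KO and 6.36 and 5.77 CPM in het.

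Of 35 tested genes of secreted factors, 20 lay above 0, against 50.8% of all genes tested, with a median of 0.10 (0.04 without KO 2). Igf1 and Vegfa had the lowest p. Vegfa, the main growth factor of blood vessels, stood at 143 and 92.0 CPM in KO and 69.4 and 82.3 CPM in het (log2 difference 0.63, unadjusted p = 0.0171 by edgeR). Bmp4 stood at 313 and 241 CPM in KO and 221 and 209 CPM in het, and Sema3d, a guidance cue of epicardium, at 387 and 370 CPM in KO and 302 and 309 CPM in het. For these 3 genes the KO libraries lay above both het libraries, as for 12 of the 35 tested, against 16.6% of all genes. The fibroblast growth factor gene Fgf9 overlapped between groups, at 61.1 and 67.9 CPM in KO and 66.3 and 63.4 CPM in het. Of 28 growth factor receptor genes, 20 lay above 0, against 50.8% of all genes tested, with a median of 0.10. In mesenchymal cells it was 22 of 30 (median 0.07), in endothelial cells 24 of 29 (0.14) and in cardiomyocytes 3 of 29 (-0.41). In epicardial cells Acvr1 and Erbb4 reached an unadjusted p under 0.05, both higher in KO, against 1.93% of all genes. Erbb4, a receptor of neuregulins, stood at 49.3 and 37.0 CPM in KO and 33.9 and 28.0 CPM in het. Without KO 1, 10 of 28 receptor genes lay above 0 with a median of -0.04, and without het 1 it was 24 of 29 with a median of 0.29.

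Among targets and inhibitors of BMP and TGF-beta signalling, Id3 had the lowest p, and no gene passed the adjusted threshold. Of 15 tested, 14 had a log2 difference below 0, against 49.2% of all genes tested, with a median of -0.25, and in 7 of them both KO libraries lay under both het libraries, against 15.5% of all genes. Without het 1 it was 11 of 15 with a median of -0.26, and the median was -0.53 without het 2 and -0.48 without KO 1. Id2 stood at 113 and 77.8 CPM in KO and 136 and 122 CPM in het, and the inhibitory Smad7 at 56.1 and 57.1 CPM in KO and 69.4 and 70.6 CPM in het. Id1 stood at 161 and 135 CPM in KO and 154 and 177 CPM in het, where the groups overlapped.

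Lists of epithelial structure and of matrix differed in their medians. Of 21 tested basement membrane genes, 20 lay above 0, against 50.8% of all genes tested, with a median of 0.26. Lamc1 and Lamb2 reached an unadjusted p under 0.05, both higher in KO, against 1.93% of all genes. Lamc1, the laminin gamma 1 chain, stood at 201 and 166 CPM in KO and 136 and 140 CPM in het. Lamb2 stood at 48.4 and 45.0 CPM in KO and 37.6 and 36.5 CPM in het. Without KO 1, 14 of 21 lay above 0 with a median of 0.13. In endothelial cells 17 of 21 basement membrane genes lay above 0 (median 0.31). In mesenchymal cells it was 15 of 21 (0.03), and in cardiomyocytes 1 of 20 (-0.52). Of 26 tested genes of junctions and polarity, 21 lay above 0 with a median of 0.14, and none reached an unadjusted p under 0.05. Without KO 2 it was 16 of 27 with a median of 0.03, and without het 1 it was 16 of 26 with a median of 0.08. Of 25 genes of the epithelial-to-mesenchymal transition, 8 lay above 0 with a median of -0.13 (-0.05 without KO 1). Twist1, a factor of that transition, stood at 71.5 and 68.2 CPM in KO and 96.0 and 83.9 CPM in het, and Acta2, smooth muscle actin, at 28.0 and 47.2 CPM in KO and 53.0 and 56.9 CPM in het. Fn1, fibronectin, lay the other way, at 2270.3 and 2002 CPM in KO and 1445 and 1596 CPM in het. Their unadjusted p by edgeR were 0.0370 for Twist1 and 0.0299 for Fn1.

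Of 26 interstitial matrix genes, 12 lay above 0 with a median of -0.07. An unadjusted p under 0.05 by edgeR was reached by 5 lower in KO, against 1.65% of all genes tested. On the higher side it was reached by 1, against 1.93%. Vcan, the proteoglycan versican, stood at 33.7 and 27.0 CPM in KO and 181 and 37.8 CPM in het, and Postn, periostin, at 19.9 and 15.8 CPM in KO and 104 and 18.2 CPM in het. Hapln1, a link protein of hyaluronan matrix, stood at 6.32 and 5.66 CPM in KO and 45.4 and 4.62 CPM in het. High values of these 3 genes came from het 1 alone. Without het 1, 14 of 26 interstitial matrix genes lay above 0 with a median of 0.07, and without KO 2 it was 10 of 26 with a median of -0.25.

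Hypoxia and glycolysis genes had 20 of 21 members above 0, against 50.8% of all genes tested, with a median of 0.29. An unadjusted p under 0.05 was reached by 5, all higher in KO, against 1.93% of all genes, namely Bnip3, Ero1l, Egln3, Ndrg1 and Pdk1. Bnip3, a mitochondrial protein induced by low oxygen, stood at 128 and 124 CPM in KO and 66.3 and 93.0 CPM in het. Ndrg1 stood at 81.5 and 73.5 CPM in KO and 33.3 and 63.4 CPM in het. In both genes het 1 was the lowest library, and without it 13 of 21 lay above 0 with a median of 0.11. Without het 2 the median was 0.58. In other classes of the same libraries this list had 19 of 21 above 0 in mesenchymal cells (median 0.17) and 19 of 21 in endothelial cells (0.32). In cardiomyocytes it was 16 of 21 (0.11). Of 19 Hippo pathway genes, 14 lay above 0 with a median of 0.17, and of 19 Wnt and hedgehog genes, 10 lay above 0 with a median of 0.02. Without a library these medians ranged from 0.08 to 0.24 and from -0.12 to 0.16.

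**Figure D5:**
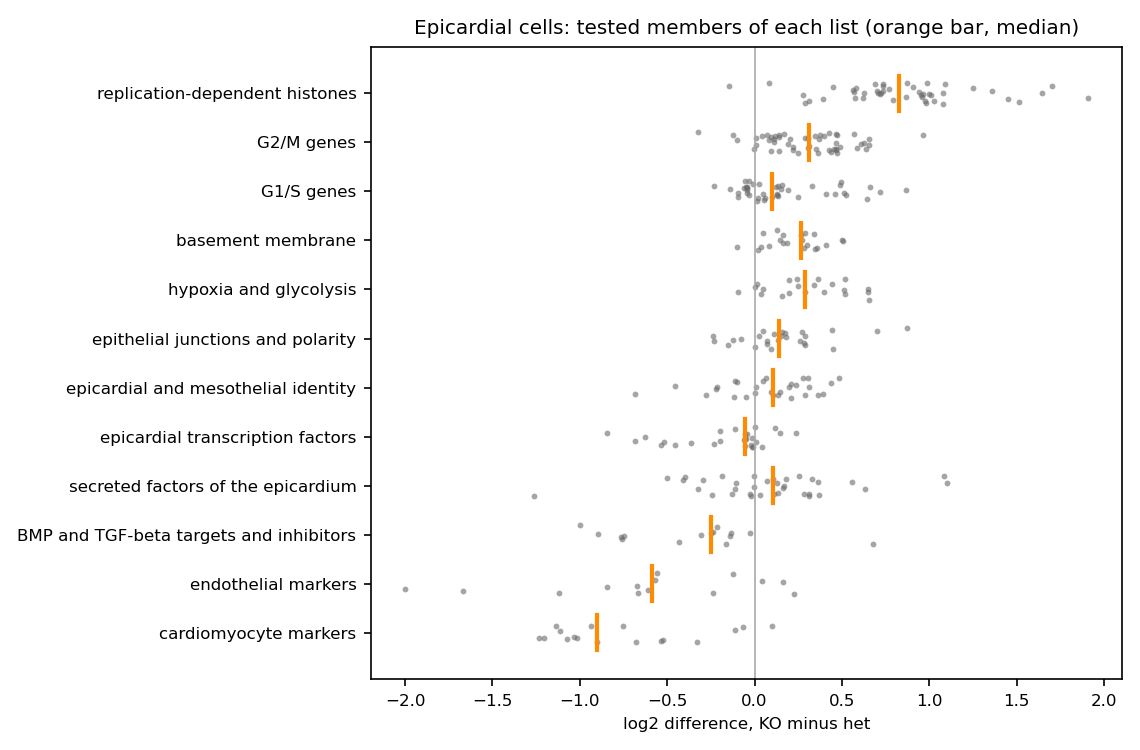
Log2 difference, KO minus het, of each tested gene of 12 lists in epicardial cells (points), with the median as a bar. Histones stand to the right (median 0.83), the BMP and TGF-beta list to the left (median -0.25), and markers of endothelial cells and cardiomyocytes further left (medians -0.59 and -0.90, against 0.10 and -0.29 without het 1), with markers of epicardial identity around 0. The gate limited endothelial and cardiomyocyte transcripts, so those marker lists are not independent of the selection.

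Transcripts of other cell types were present and differed between the libraries. The gate limited the 8 cardiomyocyte genes to under 1% of UMIs, and Cdh5, Pecam1 and Emcn to at most 1 UMI. Levels of these genes are therefore not independent of the selection and are not read as a result. A cap of 1 UMI also weighs differently on libraries of unlike depth. Of 17 cardiomyocyte markers, 16 lay below 0 with a median of -0.90, and their summed level was 3549 and 2872 CPM in KO and 4871 and 3886 CPM in het. Myl7 alone, which epicardial cells share, stood at 1750 and 1974 CPM in KO and 1579 and 2324 CPM in het. A sum of cardiomyocyte genes is therefore not a measure of other cells alone. Without het 1, 11 of the 17 lay below 0 with a median of -0.29, and without KO 1 the median was -1.87. Of 14 tested endothelial markers, 11 lay below 0 with a median of -0.59. Without het 1 the direction turned, with 8 of 14 above 0 and a median of 0.10, and without het 2 the median was -1.31. The summed level of these markers was 585 and 346 CPM in KO and 591 and 387 CPM in het. The defining endothelial gene Cdh5 was at 1.24 and 0.145 CPM in KO and 5.15 and 1.59 CPM in het. Of 15 tested fibroblast markers, 10 lay below 0 with a median of -0.22 (-0.06 without het 1), and the list summed to 8609 and 14348 CPM in KO and 9424 and 9486 CPM in het. In 6 of the 15 both KO libraries lay under both het libraries, against 15.5% of all genes tested. In 2 they lay above, against 16.6%. Blood and macrophage transcripts, mainly globins, summed to 26138 and 2808 CPM in KO and 31688 and 6099 CPM in het. Of 9 tested mural genes, 6 lay below 0 with a median of -0.31, but 4 of 9 did so without het 1 or without KO 2, with medians of 0.00 and 0.01. Of 11 liver and lung genes 1 passed the count filter. The part of these transcripts in the differences above was not tested. H3c3 kept its call when cells with 1% or more globin UMIs, cells scored as doublets, or cells under 5000 UMIs were left out.

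The share of epicardial cells did not separate the groups. Of cells low in cardiomyocyte transcripts, 6.98% (95% Wilson interval 6.28 to 7.75) and 5.71% (4.88 to 6.67) were epicardial in KO, and 8.26% (7.44 to 9.16) and 4.40% (3.83 to 5.04) in het. The means were 6.34 ± 0.898% in KO and 6.33 ± 2.73% in het (SD, n = 2 each), a difference of 0.0168 percentage points (two-sided exact permutation p = 1). The het libraries enclosed the KO ones. Of all passing barcodes, 3.46% and 2.83% were epicardial in KO and 1.62% and 2.55% in het, where the denominator of het 1 holds its many barcodes with cardiomyocyte transcripts.

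Whether the difference between KO and het was particular to the epicardium was tested against mesenchymal and endothelial cells of the same libraries. In either comparison 1 gene passed, of 15663 tested against mesenchymal cells (0.00638%) and of 16044 tested against endothelial cells (0.00623%). On their own, mesenchymal and endothelial cells had no gene past the adjusted threshold by edgeR, with 185 (1.11%) and 667 (4.14%) genes at an unadjusted p under 0.05.

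H1f5 passed against mesenchymal cells. Its mesenchymal levels were 533 and 802 CPM in KO and 606 and 885 CPM in het, a log2 difference of -0.16, against 0.96 in epicardial cells. The difference of the effects was 1.14 (SE 0.13, adjusted p = 0.0425 by edgeR with the library as a block). Without KO 1 it was 1.04 and the call ended (adjusted p = 0.0635 by edgeR). The fits that left out a library called 13 genes without het 1, 77 without het 2, 5 without KO 1 and 3 without KO 2. H3c3 differed by 1.26 from its effect in mesenchymal cells and by 0.90 from that in endothelial cells, and passed in neither comparison (adjusted p = 0.167 and 0.122 by edgeR). The tested histone genes had a median log2 difference of -0.01 in mesenchymal cells (25 of 54 above 0), 0.28 in endothelial cells (47 of 53) and 0.31 in cardiomyocytes (47 of 52). Hes1, a target of Notch signalling, had the lowest p below 0 against mesenchymal cells, at 3.11 and 4.36 CPM in KO epicardial cells and 9.09 and 8.95 CPM in het, with a difference of effects of -1.37 (adjusted p = 0.255 by edgeR).

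Fbln5, an elastic fibre protein, passed against endothelial cells. In epicardial cells it stood at 109.8 and 97.6 CPM in KO and 86.9 and 80.1 CPM in het, and in endothelial cells at 8.70 and 5.27 CPM in KO and 25.9 and 23.1 CPM in het. The log2 differences were 0.32 (SE 0.15) in epicardial cells and -1.80 (SE 0.26, adjusted p = 0.305 by edgeR) in endothelial cells, and neither passed on its own. The difference of the effects was 2.13 (SE 0.18, adjusted p = 0.00334 by edgeR), and it stayed between 1.87 and 2.43, and past the threshold, when each library was left out. The count of genes past the threshold was 107 without het 1, 63 without het 2, 114 without KO 1 and 17 without KO 2. Of that difference, the endothelial log2 difference was the greater share. H1f5 had the next lowest p, with a difference of effects of 0.94 (adjusted p = 0.0659 by edgeR) and endothelial levels of 368 and 443 CPM in KO and 314 and 486 CPM in het. On the other side of 0 the lowest p belonged to C1qb and Ctss, genes that macrophages express, with differences of effects of -1.55 and -2.43 (adjusted p = 0.0659 and 0.0797 by edgeR). The peptidase gene Dpp4 and the collagen gene Col14a1 had differences of effects of 1.19 and 1.22 (adjusted p = 0.0898 for each by edgeR). None of these 5 genes passed. Dpp4 stood at 524 and 528 CPM in KO epicardial cells and 372 and 394 CPM in het.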

How the data were processed

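The authors deposited UMI counts, not normalized, in a sparse matrix for each library, made with Cell Ranger 6.0.1 per the file headers; the submitters' processing notes name mm10, Cell Ranger and Seurat. The labels' protocols disagree on the kit (3′ v2 or Next GEM). The files did not state their annotation; positions were looked up in GENCODE M21 (GRCm38) and promoters in RefSeq. The barcode and feature files name cells and genes and hold no measurement. No per-sample column was left unused (0).

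The members and the gene lists were chosen with earlier results of these data known. The gate described above was applied to every library. Comparison classes were also gates: cardiomyocytes had at least 5% UMIs of the 8 cardiomyocyte genes, endothelial cells at least 4 UMIs and 2 genes of Cdh5, Pecam1 and Emcn, and mesenchymal cells at least 10 UMIs of Col1a1, Col1a2 and Col3a1 with globin UMIs under 5%. The last 2 classes had at most 1 UMI of the epicardial gate genes. A gate and its comparison classes are not an annotation by the authors. UMIs were summed per library and class. In edgeR 4.0.16 (R 4.3.3), filterByExpr with a minimum count of 10 and a minimum total of 15 chose the genes, TMM set the scale, and glmQLFit with glmQLFTest compared KO with het, with Benjamini-Hochberg adjustment over all genes at 0.05. A difference of effects is the class by genotype term of a fit that holds the library fixed. The fits were first tested on simulated data. DESeq2 1.42.0 and limma 3.58.1 served as alternatives. CPM are TMM-scaled, except in the splits by G2/M UMIs, by depth and near the gate, where they are plain CPM. SD is over 2 libraries and SE is that of the log2 difference. For shares, the two-sided exact permutation p cannot go below 0.333 here. Wilson intervals and the floor of 3 counts cover counting error only.

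Doublets were scored with Scrublet in scanpy 1.11.5 (expected rate 0.1). Its automatic threshold called almost none in 3 libraries, so the threshold of het 2, 0.310, was used for all after the scores were seen, and 18, 0, 3 and 3 epicardial cells of KO 1, KO 2, het 1 and het 2 were called; they were left out only in an alternative. Replicate libraries differed beyond sampling noise, with a chi-square per gene of 22.7 between the KO libraries and 18.4 between the het libraries.

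Genes were named by rule: gate genes and markers, Gata4 and the added sequences; up to 4 members of lowest p per list; 10 genes per direction of lowest p with at least 20 CPM and groups apart; the 20 genes with the highest epicardial ratio; the 15 most variable genes; and 5 per direction for each difference of effects. Wt1, Tbx18, Tcf21 and Aldh1a2 shares, other list members shown as contrast, the last gene where 5 were counted, Xist, H3c2 and the histone list were chosen after values were seen.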

Additional observations from a re-analysis of the deposited data

Results flagged for a closer look

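H1f5, a linker histone gene, differed between KO and het in another way in epicardial cells than in mesenchymal cells of the same libraries. The log2 effect in epicardial cells exceeded that in mesenchymal cells by 1.14 (adjusted p = 0.0425 by edgeR, tested as an interaction), where the log2 differences, KO minus het, were 0.96 in epicardial and -0.16 in mesenchymal cells, neither past the threshold on its own. The call ended without KO 1.

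Fbln5 differed in another way in epicardial cells than in endothelial cells. The log2 effect in epicardial cells exceeded that in endothelial cells by 2.13 (adjusted p = 0.00334 by edgeR, tested as an interaction). Epicardial levels were 109.8 and 97.6 CPM in KO and 86.9 and 80.1 CPM in het, and endothelial levels 8.70 and 5.27 CPM in KO and 25.9 and 23.1 CPM in het.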

How the results depend on the processing

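The count of genes past the threshold between KO and het was 1 in the fit reported. It was 5 with DESeq2, 91 with no filter on low counts (45 higher, 46 lower), 0 with cardiomyocyte UMIs under 0.5% (392 at an unadjusted p under 0.05) and 0 with no endothelial UMI (508), the last 3 by edgeR, and 18 to 114 when a library was left out. With the replicate number as a block it was 105 (55 higher, 50 lower). The fit reported has no such block. The labels do not say what the numbers mean. Library differences of the same number correlated at r = 0.39 over 13842 genes, and 2 pairs cannot settle whether libraries are paired. Some values followed the number, and others, H3c3 among them, did not. Thinned EGFP shares were 29.1% in KO 1 and 34.3% in het 1, against 17.7% in KO 2 and 18.0% in het 2. Tcf21 shares were 22.8% and 22.3%, against 11.6% and 12.2%, in the same order. A shared effect of the number was not tested. Without a library, 3 to 77 genes were called against mesenchymal cells and 17 to 114 against endothelial cells. The difference in epicardial share was -0.238 percentage points with a gate of at least 3 UMIs, 1.03 with a gate of at least 8 UMIs and 1.07 with all passing barcodes as the denominator, and ranged from -1.913 to 1.947 without a library. The difference in G2/M share was 1.77 when thinned to 5000 UMIs, 0.671 with a gate of at least 8 UMIs and ranged from -13.98 to 12.65 without a library. The difference of effects of Gal against mesenchymal cells, -5.45 and not past the threshold, ranged from -8.385 to 2.322 without a library and was above 0 only without het 2. Other settings gave 348 of the single-gene values on the same side of the threshold, 88 newly past it and 3 no longer past it. The limits on cell depth and globin were chosen after seeing the data. The lower depth of het 1 and the 2 libraries a group limit the precision of low genes.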
